A study of Homo sapiens with 6 samples.

Results

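The genes described here are 36 human genes whose proteins fold secretory proteins in the endoplasmic reticulum (ER), remove those that misfold, or sense the load of unfolded protein. They were chosen by name, as every probe set of the array whose platform annotation gives a listed gene under its current or a former symbol. This found 87 of 54675 probe sets. Of these, 84 name 1 gene and cover 35 of the 36 genes. The other 3 name a listed gene together with a microRNA gene (2 for HSP90B1 and 1 for SYVN1), so that no probe set names SYVN1 alone. Expression was measured in K562, a cell line from a human chronic myeloid leukemia, on 6 Affymetrix Human Genome U133 Plus 2.0 arrays. The 2 empty vector arrays carry RNA of KpCDNA cells, stably transfected with empty pCDNA, and the 4 CTCF arrays that of KCTCF-D11 cells, stably transfected with pCDNA-CTCF. CTCF is a DNA-binding protein with zinc fingers, known for insulating genes and anchoring chromatin loops. Both lines grew in the same serum-containing medium with gentamicin and ciprofloxacin and received no further treatment. KCTCF-D11 is a single named transfectant, the empty vector line likewise, and the promoter that drives CTCF is not stated by the labels, so a property of either line and an effect of CTCF cannot be told apart. The labels do not say whether arrays of a group came from separate cultures, so the p-values reflect the spread among these arrays alone, and part or all of it may be technical. In RNA of a whole culture, fewer cells that express a gene and less RNA per cell cannot be told apart.

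Proteins that enter the secretory pathway are threaded through the SEC61 channel and folded in the ER lumen by chaperones such as BiP (HSPA5) and by disulfide isomerases, which the ERO1 oxidases recharge. Glycoproteins that fail to fold have their glycan trimmed by EDEM proteins, are recognised by the lectins OS9 and ERLEC1, and are handed to SEL1L and the ubiquitin ligase SYVN1 for export to the proteasome, a route called ER-associated degradation. A rise of unfolded protein is sensed by ERN1 (IRE1), ATF6 and EIF2AK3 (PERK), and ERN1 splices the mRNA of XBP1. ATF6 and spliced XBP1 then raise many of the genes named here through short promoter sequences called ER stress elements.

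The arrays fall into a pair of sets that cross the groups, read by clustering the arrays on 45 bacterial and phage spike-in probe sets. No label names these sets, and whether the whole difference between them is technical was not tested. The smaller set holds empty vector array 1 and CTCF array 4, and the larger holds empty vector array 2 and CTCF arrays 1, 2 and 3. For the ACTB mRNA, the log2 signal toward its 3′ end exceeded that toward its 5′ end by 0.81 and 0.91 in the smaller set. In the larger set this excess was 0.22 to 0.28. For GAPDH the sets were alike, at -0.12 and -0.12 against -0.15 to -0.11. The thr spike-in read 85.2 and 112 against 454 to 853. The part of these differences in the ER results was not tested. Pearson correlations over all probe sets, which are not independent, were 0.966 to 0.991 within a set and 0.878 to 0.907 between sets. Log2 changes below are coefficients ± SE of a limma fit on log2(value + 16) with the array set as a block, CTCF over empty vector, and rose and fell are used only for a Benjamini-Hochberg adjusted p under 0.05 over 54613 probe sets. The added 16 makes the fold understate changes of low values. Array medians lay between 28.9 and 34.2, and the number of arrays limits the precision. The CTCF probe set (202521_at) read 457 and 634 with empty vector and 1311 to 1614 with CTCF and rose by 1.29 ± 0.16 (adjusted p = 0.0288), while its paralog CTCFL had -0.47 ± 0.14 (adjusted p = 0.16). Of 13 measured erythroid and megakaryocytic markers, 1 rose and 0 fell, and 7 had an unadjusted p under 0.05. HBE1, an embryonic globin gene that K562 cells are known to express, had 0.41 ± 0.11 (adjusted p = 0.136). The embryonic globin gene HBZ, chosen here after its values were seen, read 1929 and 2591 against 6433 to 7672 and rose by 1.58 ± 0.13 (adjusted p = 0.0166). The part of this in the ER results was not tested. Of 8 markers of B and plasma cells and 7 of monocytes and granulocytes 0 passed in limma, with 2 and 0 at an unadjusted p under 0.05. Among 9 markers of fibroblasts and epithelium, 0 passed the threshold, with 1 at an unadjusted p under 0.05. COL3A1 of this list, chosen here after its values were seen, read 146 to 165 across the larger set but 6627 and 6114 in the smaller. Of 5 T-cell markers 1 fell and 4 did not pass, with 1 at an unadjusted p under 0.05. CD3D, the brightest, fell by 1.04 on the log2 scale (SE 0.12, adjusted p = 0.025). Its mean went from 1335 ± 24.0 (SD, n = 2) to 642 ± 30.8 (SD, n = 4). The 4 others read 3.47 to 54.3, with log2 changes from -0.41 to -0.03. The part of other cells in any result was not tested.

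With each gene read by its brightest single-gene probe set, 3 of 35 genes fell and 0 rose. They are ERO1B, an oxidase of disulfide formation, and SEL1L and ERLEC1, of glycoprotein degradation. Over all genes of the array 1.95% fell and 0.622% rose by the same rule. At the level of probe sets, 7 of the 87 fell, against 1.32% of all probe sets and 2.48% of those with a mean above the median. They belong to ERO1B, SEL1L, ERLEC1, ATF6, DNAJB9, P4HB and OS9. Again 0 rose, against 0.538% of all probe sets, and 37 of the 87 had an unadjusted p under 0.05 in limma. In the same fit that unadjusted threshold was passed by 17.6% of all probe sets and 21.4% of all genes. Unadjusted counts from this fit are to be read against these shares. The median log2 change was -0.27 over the 35 genes and -0.02 over all 19775 genes, with -0.34 and -0.26 for the 35 within the smaller and larger sets and -0.15 with the replicate number as a block. These medians were not tested. Of the 35 genes 30 had a log2 change below 0, against 53.1% of all genes. Over the probe sets, 73 of the 87 lay below 0, against 53.2% of all probe sets. In 11 of the 35 genes every CTCF array lay below both empty vector arrays, which 9.63% of all genes did, and in 1 (DERL1) every CTCF array lay above, which 8.0% of all genes did. Over the 87 probe sets this held for 22 and for 1, against 7.18% and 6.06% of all probe sets. These shares, too, include dim probe sets and were not computed for the brighter ones.

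The calls rest on few arrays, and several fits made few or no calls among all probe sets as well. Without the array set block 0 member probe sets passed, with 17 at an unadjusted p under 0.05, where limma called 6 probe sets in all (0.011%), and with 1 in place of 16 added to the values 0 passed, with 31 at an unadjusted p under 0.05. Leaving out any array except CTCF array 1 also left 0 calls among the members, with 24 to 38 at an unadjusted p under 0.05, and without CTCF array 1 there were 6. How many of all probe sets passed the unadjusted threshold in these fits was not computed, so these unadjusted counts have no share beside them. All 7 probe sets that fell had a negative log2 change throughout these fits, but they were selected on the same arrays.

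**Figure D1:**
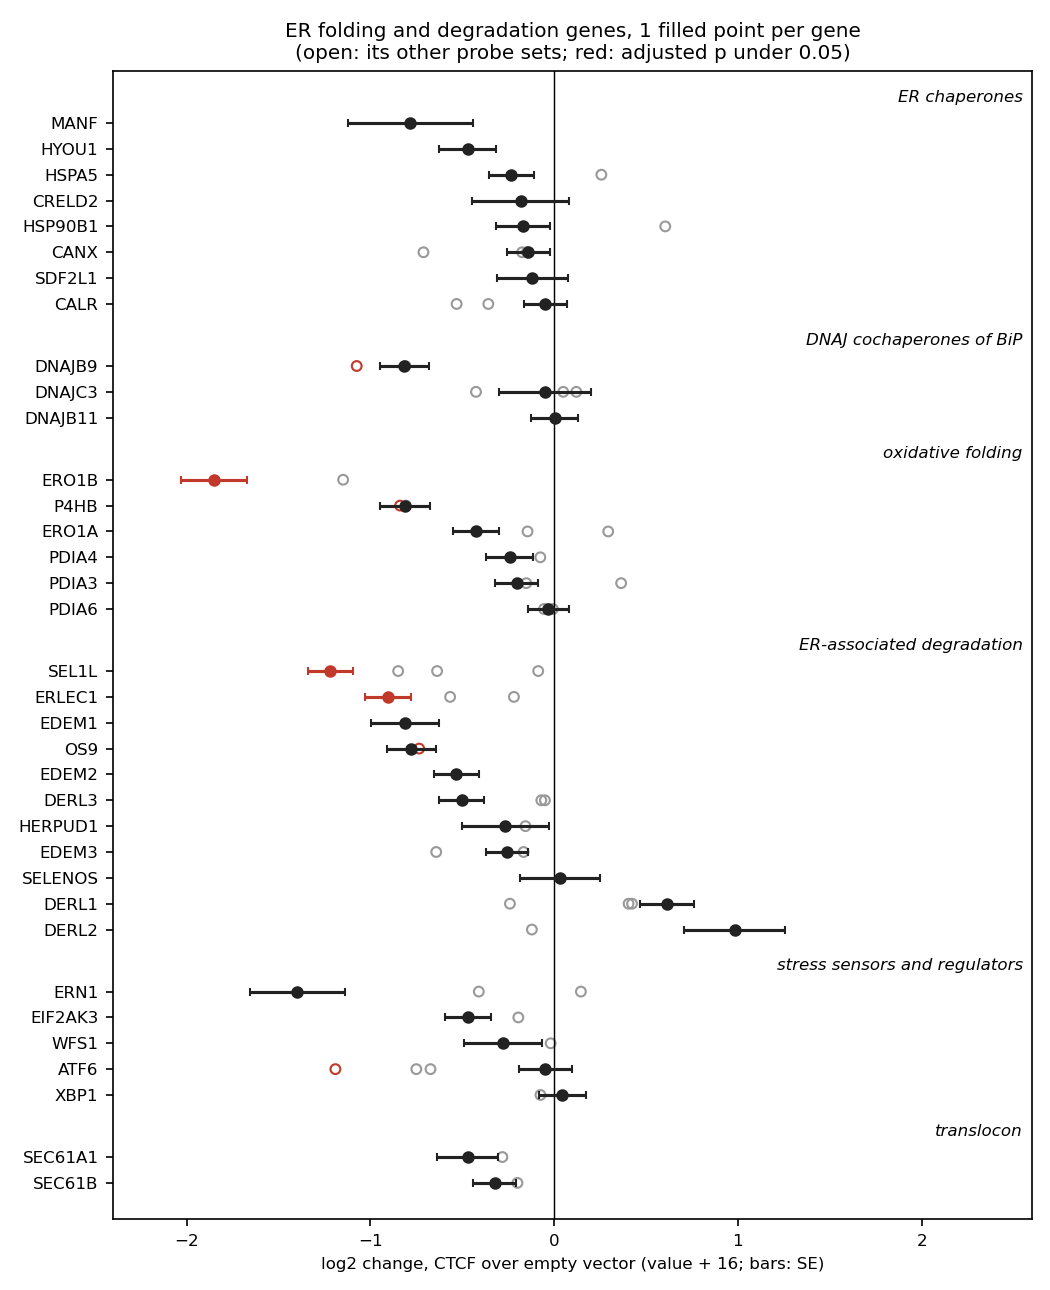
Log2 change of each ER gene, CTCF over empty vector, on the x axis, by role on the y axis. Filled points are the brightest probe set of a gene with its SE, open points its other single-gene probe sets, and red marks an adjusted p under 0.05. ERO1B at -1.85, ERN1 at -1.40, SEL1L at -1.22 and ERLEC1 at -0.90 lie farthest to the left among the filled points, ERN1 without passing the threshold, while XBP1, PDIA6, CALR and DNAJB11 lie near 0.

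The promoters of these genes show which of them carry an ER stress element. RefSeq windows (GRCh38.p14) that run from 250 bases before to 50 bases after each transcription start matched 33 of the 36 genes by symbol, in 40 windows, and were searched on both strands for 4 motifs. The element ERSE, spelled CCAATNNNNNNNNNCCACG, was found for 8 of the 33 genes, and 0.0916% of all 27305 genes have it. The shorter ERSE-II, spelled ATTGGNCCACG, was found for 3, HERPUD1, HYOU1 and SDF2L1, against 0.0696% of all genes. Of the 2 ERSE-II of HYOU1, that farther from the start overlaps the only match of UPRE, spelled TGACGTGG, which 0.927% of all genes have. A degenerate core of the CTCF motif, spelled CCNCNAGNNGGC, was found for 5 of the 33 genes, CALR, DERL2, ERO1B, PDIA6 and SDF2L1, against 4.12% of all genes. With at most 1 mismatch in its fixed bases, ERSE was found for 15 of the 33 genes and 1.89% of all genes, SEL1L among them. A match is a description of letters and not a measured binding site.

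The exact matches are printed because they set the chaperone genes, which did not pass the threshold, beside ERO1B, which fell. Each line gives 29 bases, 5′ to 3′ on the gene's strand, with the fixed bases of the motif in capitals, and an ERSE that lies on the gene's own strand reads CCAAT first. The first 9 lines are ERSE and the last 4 are ERSE-II.
HSPA5 (chr9:125241386-125241414, minus strand): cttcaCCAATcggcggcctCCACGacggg
HSP90B1 (chr12:103930211-103930239, plus strand): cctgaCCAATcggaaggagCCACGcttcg
HSP90B1 (chr12:103930316-103930344, plus strand): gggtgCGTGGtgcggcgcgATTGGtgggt
CALR (chr19:12938379-12938407, plus strand): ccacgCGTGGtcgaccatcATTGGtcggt
CANX (chr5:179698773-179698801, plus strand): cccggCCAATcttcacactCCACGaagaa
PDIA6 (chr2:10812848-10812876, minus strand): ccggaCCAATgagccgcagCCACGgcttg
CRELD2 (chr22:49918549-49918577, plus strand): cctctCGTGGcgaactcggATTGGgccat
XBP1 (chr22:28800598-28800626, minus strand): gctggCCAATcgcggagggCCACGaccgt
ERO1B (chr1:236282178-236282206, minus strand): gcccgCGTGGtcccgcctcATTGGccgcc
HERPUD1 (chr16:56932016-56932044, plus strand): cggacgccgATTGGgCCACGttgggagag
HYOU1 (chr11:119057265-119057293, minus strand): ggcctgggaCGTGGtCCAATgagtacgcg
HYOU1 (chr11:119057371-119057399, minus strand): gccccgtgaCGTGGtCCAATcccaggccg
SDF2L1 (chr22:21642105-21642133, plus strand): cctcggaagCGTGGaCCAATcaaaaccct

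For 3 genes a longer stretch of 120 upstream bases is given, with the bases at the fixed positions of each ERSE match of at most 1 mismatch in capitals. HSPA5, whose element begins 66 bases before its start, stands for the chaperones, and ERO1B and SEL1L are the genes with the largest falls. The element of ERO1B begins 243 bases before its start and that of SEL1L, with 1 mismatch, 207 bases before.
HSPA5 (chr9:125241344-125241463, minus strand): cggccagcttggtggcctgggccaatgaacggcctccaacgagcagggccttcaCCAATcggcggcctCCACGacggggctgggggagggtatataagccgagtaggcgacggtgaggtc
ERO1B (chr1:236282089-236282208, minus strand): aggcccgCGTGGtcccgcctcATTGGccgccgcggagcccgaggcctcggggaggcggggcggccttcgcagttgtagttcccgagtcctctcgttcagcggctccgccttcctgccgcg
SEL1L (chr14:81533954-81534073, minus strand): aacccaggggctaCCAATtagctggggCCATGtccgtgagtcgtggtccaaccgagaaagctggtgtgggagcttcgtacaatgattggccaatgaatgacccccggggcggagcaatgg

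Genes with and without an element were both mostly below 0. Of the 11 measured genes with an exact ERSE or ERSE-II, 1 fell (ERO1B) and the median log2 change was -0.17, with a range from -1.85 to 0.05. Of the 21 measured genes with a window and neither element, 2 fell (SEL1L and ERLEC1) and the median was -0.47, with a range from -1.40 to 0.98. The difference between these medians was not tested.

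**Figure D2:**
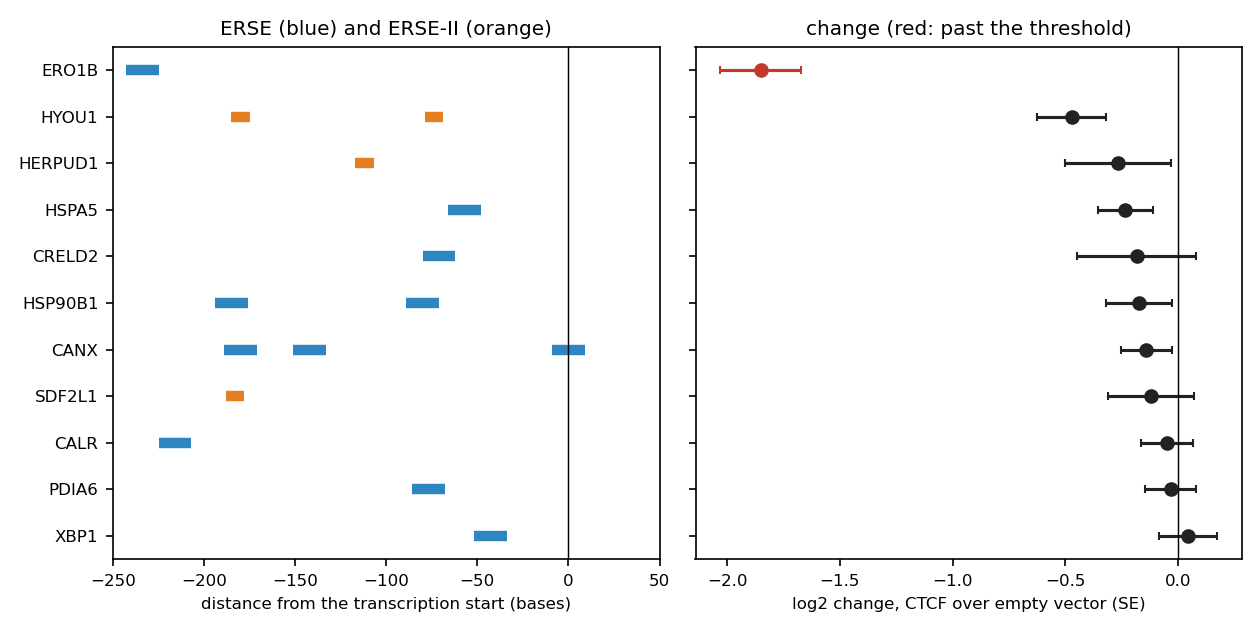
Left, distance in bases of each exact ERSE (blue) or ERSE-II (orange) from the transcription start; right, the log2 change ± SE of the same gene, CTCF over empty vector. The 3 bars of CANX are a single site seen from 3 annotated starts, and of the 11 genes shown ERO1B alone fell.

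Among the 8 ER chaperones 0 passed the threshold in limma, and 1 had an unadjusted p under 0.05. All 8 had a log2 change below 0, from -0.78 to -0.05, with a median of -0.18. HSPA5, or BiP, the Hsp70 of the ER lumen, read 5144 and 5806 with empty vector and 5457, 4991, 4804 and 4203 in CTCF arrays 1 to 4. The groups overlapped, since CTCF array 1 lay above empty vector array 1, and the log2 change was -0.23 ± 0.12 (adjusted p = 0.4005). Its second probe set (230031_at) had 0.26. HSP90B1, or GRP94, the Hsp90 of the ER, was read by 216449_x_at at 1419 and 1699.5 against 1500.4, 1778, 1732 and 1084, which also overlap, with -0.17 ± 0.15 (adjusted p = 0.624). Its other single-gene probe set, 216450_x_at, had 0.60 (adjusted p = 0.152), so the sign for HSP90B1 depends on the probe set. The 2 probe sets that list it beside a microRNA gene, 200599_s_at and 200598_s_at, had -0.20 and -0.0018. Of these, 200599_s_at is brighter than 216449_x_at. It read 5239 and 5685 against 4435 to 5197, so that every CTCF array was lower, and did not pass (adjusted p = 0.437).

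The lectin chaperones, which hold newly made glycoproteins, had small changes by their brightest probe sets. CALR (calreticulin) read 3187 and 3000.4 against 3048, 3128, 3040.2 and 2827, with -0.05 ± 0.12 (adjusted p = 0.883). CANX (calnexin) read 6299.5 and 6841 against 6605, 6173, 6013 and 5649.5, with -0.14 ± 0.11 (adjusted p = 0.606). In both genes at least 1 CTCF array lay between the empty vector arrays. Their probe sets reached down to -0.53 for CALR (214315_x_at, adjusted p = 0.173) and -0.71 for CANX (238034_at, adjusted p = 0.109). HYOU1, the nucleotide exchange factor of BiP also called GRP170, had -0.47 ± 0.15 (adjusted p = 0.191), with CTCF array 1 at 2996 above empty vector array 1 at 2843. MANF, a small ER protein that binds BiP, read 1244 and 1282 against 545, 1123, 1082 and 557. All 4 CTCF arrays were lower, arrays 2 and 3 nearer to the empty vector level than arrays 1 and 4, and -0.78 ± 0.34 did not pass (adjusted p = 0.315). CRELD2 and SDF2L1, both induced by ER stress, had -0.18 ± 0.26 and -0.12 ± 0.19.

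The 3 DNAJ proteins that steer BiP differed. DNAJB9, or ERdj4, which delivers misfolded clients to BiP and holds ERN1 in check, was the lower one. Its probe set 202843_at read 176 and 345 with empty vector and 168, 166, 153 and 70.3 with CTCF, and fell by 1.07 (SE 0.12, adjusted p = 0.0247), 2.11-fold. The groups did not overlap, but empty vector array 1 was close to CTCF arrays 1 and 2, which belong to the other set, and within the smaller and larger sets the difference was -1.16 and -1.02. The brightest probe set of the gene, 202842_s_at, read 1202 and 1275 against 772, 835, 714 and 605, with -0.82 ± 0.13 and an adjusted p of 0.0502, just outside the threshold. The other probe set (1554462_a_at) had -0.81 ± 0.17. DNAJB11 (ERdj3) had 0.0022 ± 0.13 and DNAJC3 (p58IPK) -0.05 ± 0.25, each with overlapping groups. Of the 3 genes 0 passed in limma by the brightest probe set and 1 had an unadjusted p under 0.05.

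Of the 6 genes of oxidative folding, 1 fell and 0 rose, with a median of -0.33 and all 6 below 0. ERO1B, the ERO1 oxidase paralog known from secretory tissue such as pancreas, had the largest fall of all members. Its probe set 231944_at read 160.1 and 319.8 with empty vector and 70.55, 102, 91.2 and 25.7 with CTCF. Every CTCF array was below both empty vector arrays, and the mean went from 239.9 ± 113 (SD, n = 2) to 72.5 ± 33.8 (SD, n = 4). The fall was 1.85 on the log2 scale (SE 0.18, adjusted p = 0.0221), 3.61-fold, with -2.08 and -1.70 within the smaller and larger sets. Its second probe set, 220012_at, had -1.15 ± 0.19 and an adjusted p of 0.0525. The paralog ERO1A, the widely expressed oxidase, read 497 and 731 against 549, 556, 479 and 381, with -0.42 ± 0.13 (adjusted p = 0.159), and its other probe sets had -0.14 and 0.29.

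P4HB, the founding protein disulfide isomerase, had a log2 change below 0 by each of its 3 probe sets. The brightest, 200654_at, read 3713 and 4687 against 2966.5, 2556, 2411 and 2149.6, so that the groups were apart, with -0.81 ± 0.135 and an adjusted p of 0.05165. The probe set 1564494_s_at fell by 0.84 (SE 0.13, adjusted p = 0.0441), although CTCF arrays 1 to 3, at 1160.1 to 1321, lay above empty vector array 1 at 1066. That call rests on the comparison within sets, where the difference was -0.96 and -0.75. The other isomerases did not pass. PDIA6 (P5) had -0.03 ± 0.11 and 4 probe sets between -0.06 and -0.0068, a sign that turned with quantile normalization (0.04) and with median centring (0.015). PDIA4 (ERp72) read 915 and 2623 against 2085, 2487, 2152 and 762, a pattern that follows the array set, with -0.24 ± 0.13. PDIA3 (ERp57), which works with CALR and CANX, had -0.20 ± 0.12.

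**Figure D3:**
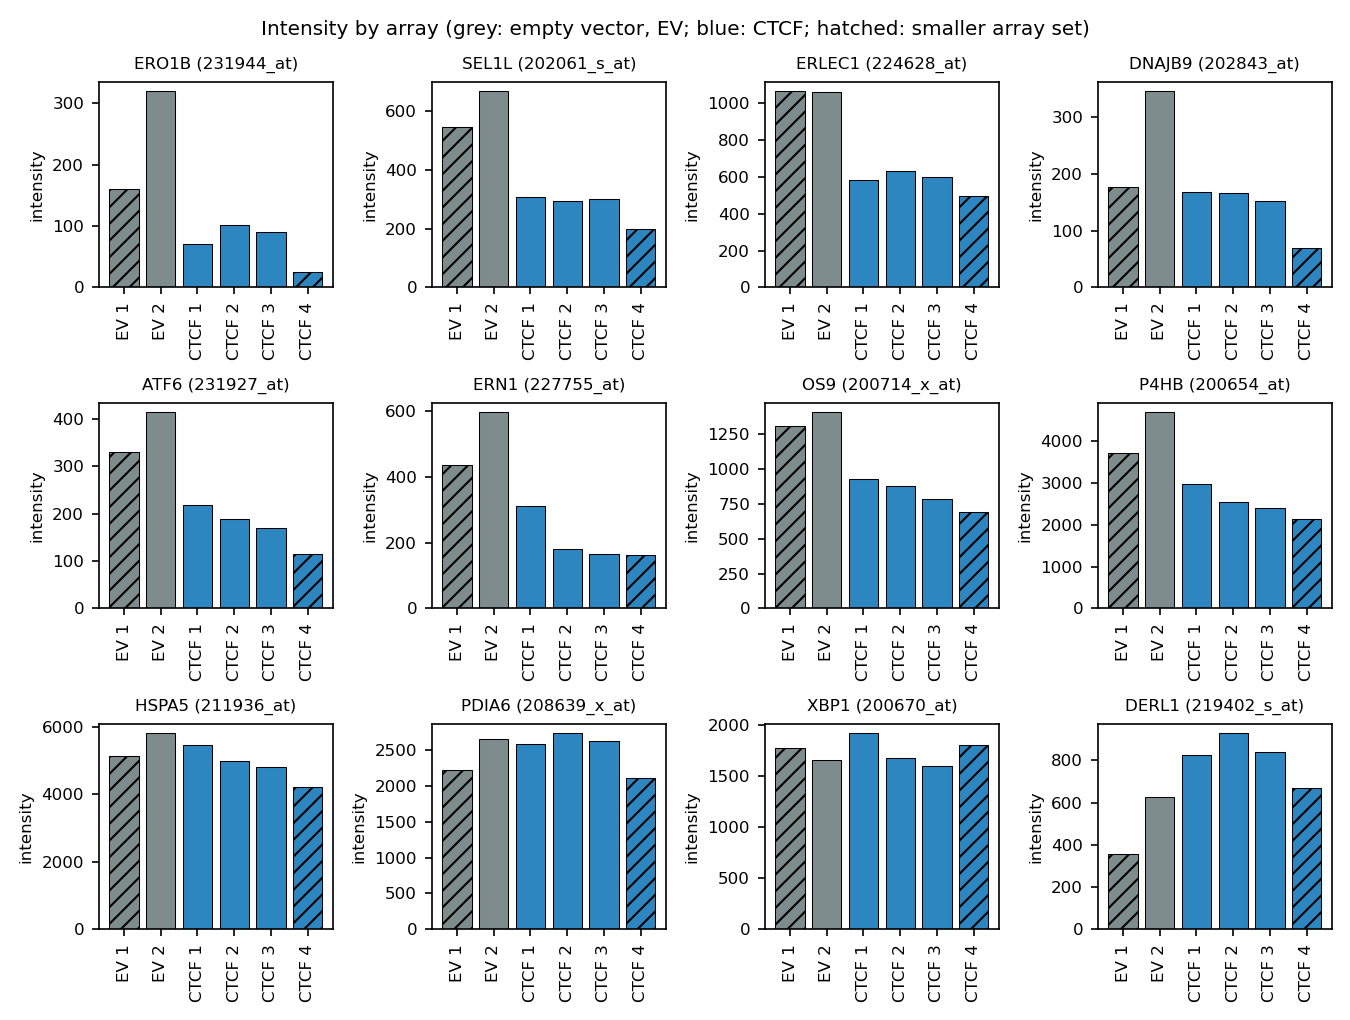
Intensity on a linear scale of 12 probe sets in each of the 6 arrays, empty vector in grey and CTCF in blue, with hatching for the smaller array set. In ERO1B, SEL1L, ERLEC1, ATF6 (231927_at) and OS9 every blue bar is below both grey bars, in HSPA5, PDIA6 and XBP1 the groups overlap, and in DERL1 every blue bar is higher.

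ER-associated degradation holds SEL1L and ERLEC1. Of 12 listed genes 11 were measured, 2 fell, 0 rose, 8 had an unadjusted p under 0.05, and the median was -0.50. SEL1L, the membrane adaptor that holds the SYVN1 ligase complex together, read 544 and 666 with empty vector and 307, 294, 299 and 199 with CTCF (202061_s_at). The groups did not overlap, with CTCF arrays 1 to 3 close to each other and array 4 lower, and the fall was 1.22 (SE 0.12, adjusted p = 0.0236), 2.33-fold, with -1.38 and -1.11 within the sets. Its other probe sets had -0.85, -0.64 and -0.09, and did not pass. SYVN1 itself is named only by 225090_at, together with a microRNA gene, and that probe set had -0.46 ± 0.14 (adjusted p = 0.177), with values of 1239 and 1252 against 1071, 961, 846 and 831.

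Both lectins that recognise trimmed glycans had a probe set that fell. ERLEC1, also known as XTP3-B, read 1064 and 1059 against 580.2, 633, 601 and 499, so that the CTCF arrays lay well below the nearly equal empty vector arrays. It fell by 0.90 (SE 0.13, adjusted p = 0.0387), 1.87-fold, with -1.07 and -0.79 within the sets, and its other probe sets had -0.57 and -0.22. OS9 read 1305 and 1403 against 926, 879, 781 and 693 by its brightest probe set (200714_x_at), also apart, with -0.78 ± 0.13 and an adjusted p of 0.0541. Its second probe set, 215399_s_at, fell by 0.73 (SE 0.12, adjusted p = 0.0479), so the 2 probe sets differ by 0.04 and lie on either side of the threshold.

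The mannosidase-like EDEM proteins, which trim glycans before the lectins bind, had values below 0 that did not pass. EDEM1 read 591 and 735 against 489, 347, 349 and 358, with -0.81 ± 0.18 (adjusted p = 0.0923). EDEM2 had -0.53 ± 0.12 (adjusted p = 0.0968) and EDEM3 -0.26 ± 0.12 (adjusted p = 0.335). EDEM1 and EDEM3 had groups apart and EDEM2 did not. HERPUD1, a stress-induced scaffold of the ligase complex, had -0.27 ± 0.24 with CTCF array 1 above both empty vector arrays, and SELENOS, a selenoprotein that recruits the ATPase VCP, had 0.03 ± 0.22.

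The derlins, membrane proteins of the export channel, differed among themselves. DERL1 read 359 and 628 against 824, 928, 838 and 667, so that every CTCF array was higher, with 0.61 ± 0.15 (adjusted p = 0.101), and its probe sets 222543_at and 218172_s_at had 0.42 and 0.41. Its dim probe set 225488_at, at 3.26 to 19.9, had -0.24. DERL2 read 49.0 and 167 against 212, 390.4, 376 and 131, which overlap across the sets, with 0.98 ± 0.27 (adjusted p = 0.142). It was the only member to rise in any fit listed here, without CTCF array 1 (log2 change 1.15, adjusted p = 0.0451). DERL3, known from secretory cells, had -0.50 ± 0.12 (adjusted p = 0.106).

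Among the sensors, an ATF6 probe set fell and ERN1 lay just outside the threshold. By the brightest probe set 0 of the 5 genes passed in limma, with 2 at an unadjusted p under 0.05. ERN1 read 437 and 596 against 310.0, 182, 167 and 162 (227755_at), with all CTCF arrays lower and CTCF array 1 nearest to the empty vector level. Its log2 change was -1.40 ± 0.26, the second largest in size among the members, but it lay outside the threshold (adjusted p = 0.0634), and without CTCF array 1 it fell by 1.54 (adjusted p = 0.0431). Its other probe sets, 235745_at and 207061_at, had -0.41 and 0.15. EIF2AK3 read 173 and 409 against 300.2, 325, 325 and 105, with -0.47 ± 0.13 (adjusted p = 0.135).

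The 4 probe sets of ATF6 gave unlike changes. The probe set 231927_at read 331 and 414 against 219, 189, 171 and 116, with the groups apart, and fell by 1.19 (SE 0.16, adjusted p = 0.033), 2.28-fold. The brightest, 203952_at, read 424 and 610.5 against 489, 612, 565 and 452, with -0.05 ± 0.14 (adjusted p = 0.908), while 226941_at and 217550_at had -0.75 and -0.67. No level of the ATF6 transcript as a whole can be given from these. XBP1, the transcription factor made from the mRNA that ERN1 splices, read 1775 and 1656 against 1918, 1676, 1597 and 1808, with 0.05 ± 0.13 (adjusted p = 0.904), and these probe sets do not report splicing. WFS1 (wolframin), an ER membrane protein, had -0.28 ± 0.21, with empty vector array 1 at 80.3 and the other 5 arrays at 36.95 to 44.7. The translocon genes SEC61B and SEC61A1 had -0.32 ± 0.12 and -0.47 ± 0.17 (adjusted p = 0.228 and 0.22), both with an unadjusted p under 0.05.

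Where a gene has several single-gene probe sets, they mostly shared a sign. Of 27 such genes, 18 had all probe sets below 0, 0 had all above 0, and 9 were mixed, DERL1, DERL2, DNAJC3, ERN1, ERO1A, HSP90B1, HSPA5, PDIA3 and XBP1. P4HB, OS9 and PDIA6 were the most uniform, with spans of 0.03, 0.04 and 0.05 between probe sets, and ERN1 the least, with 1.54. For the 27 genes no share over all genes of the array was computed. Over all 87 probe sets, 66 had the same sign in both array sets, against 33255 of all 54613 probe sets.

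**Figure D4:**
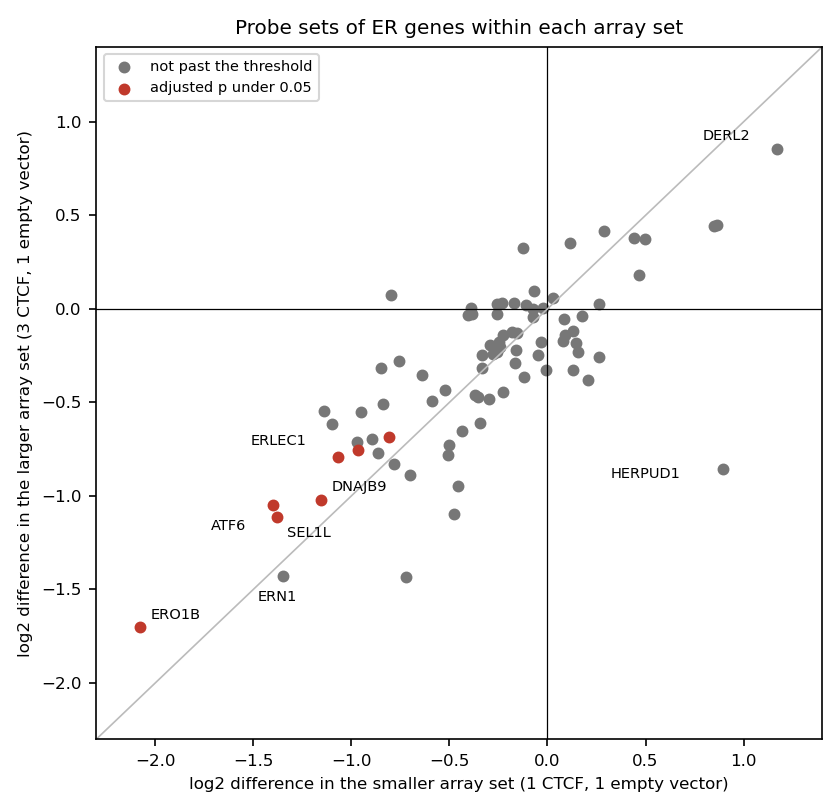
Log2 difference, CTCF minus empty vector, of each single-gene ER probe set within the smaller set (x axis, 1 array per group) and within the larger set (y axis, 3 CTCF arrays and 1 empty vector array). Red marks an adjusted p under 0.05, which selects for likeness between the sets, and the grey line marks equality. A dim probe set of HERPUD1 (1569380_a_at) had 0.90 in one set and -0.86 in the other.

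The authors' deposited table lists 768 selected probe sets, and 4 of them, all lower with CTCF, belong to these genes. In the authors' deposited table the fold of ERN1 (227755_at) is -2.52 with bounds of -1.70 and -3.81, and that of SEL1L (202061_s_at) is -2.15 with bounds of -1.65 and -2.79. In the authors' deposited table ATF6 (231927_at) has -2.14 and ERLEC1 (224628_at) -1.82. That table lists 0.837% of all probe sets as lower and 0.569% as higher, by a rule on the lower bound of the fold and the difference of means, and its values come from the same arrays.

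Other genes of the same pathway, from lists chosen with earlier results known, passed the threshold in 1 case, but several had changes as large as those of members. Of 21 measured genes of translocation and signal peptide handling 0 passed in limma, with 10 at an unadjusted p under 0.05. Their median log2 change of -0.27 was that of the ER genes, and 15 of the 21 were below 0, against 53.1% of all genes. In 10 every CTCF array lay below both empty vector arrays, which 9.63% of all genes did, and in 0 above, which 8.0% did. In the other lists of this paragraph, in their order, every CTCF array lay below in 6, 5, 2 and 1 genes. It lay above in 0, 3, 3 and 1. SRP9, the brightest, had 0.08 ± 0.12. SSR1, a subunit of the translocon-associated protein complex chosen here after its values were seen, read 4678 and 4106 against 2664, 2609.5, 2403 and 2754, with -0.71 ± 0.12 and an adjusted p of 0.0504. Of 20 genes of glycan addition and its quality control 0 passed (6 at an unadjusted p under 0.05), with a median of -0.15, a lowest value of -0.80 and RPN2, a subunit of oligosaccharyltransferase, at -0.08 ± 0.12. Of 23 other folding enzymes 0 passed (11 at an unadjusted p under 0.05), with a median of -0.16, a lowest value of -0.84 and PPIB, the ER cyclophilin, at -0.34 ± 0.12. Of 26 other degradation factors 0 passed (5 at an unadjusted p under 0.05), and their median was 0.13, with a lowest value of -0.71 and UFD1, a cofactor of VCP, at 0.41 ± 0.12 (adjusted p = 0.161). The last list holds other sensors and processing proteases, and further factors such as BAX, BAK1, RTCB, TMBIM6 and NUCB1. Of 14 measured genes there 1 fell, CREB3L4, an ER-anchored transcription factor, by 0.70 (SE 0.11, adjusted p = 0.0499). Its groups overlapped, with CTCF arrays 1 to 3 at 111 to 122 above empty vector array 1 at 97.3, and the call rests on the comparison within sets.

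Outside the ER, most genes of a list of chaperones of the cytosol and mitochondria had values above 0, 25 against 3 below. The list also holds the transcription factor HSF1, which is not a chaperone and was among those below 0 (-0.08). Of the 28 measured genes of this list, 1 rose and 0 fell, and 18 had an unadjusted p under 0.05. The median was 0.39, with 0.31 and 0.41 within the sets. HSPH1, of the HSP110 family, read 934 and 1007 against 2273, 2743, 2775 and 2229 and rose by 1.30 ± 0.14 (adjusted p = 0.0247). Of 23 genes of the ATF4 and CHOP arm, which EIF2AK3 and other kinases switch on, 0 rose and 1 fell, 4 had an unadjusted p under 0.05, and the median was -0.33, with -0.19 and -0.55 within the sets. CTCF arrays 1 and 4 stood apart from arrays 2 and 3 in several of these genes, chosen here after their values were seen. CHAC1, which degrades glutathione, read 275 and 319.98 against 894, 126, 74.2 and 847. DDIT4, an inhibitor of mTORC1, read 4712 and 5106 against 8036, 1789, 1335 and 6702. Both genes therefore lay above the empty vector arrays in CTCF arrays 1 and 4 and below them in arrays 2 and 3. PHGDH, the first enzyme of serine synthesis, read 3034 and 3741 against 755, 279, 249.7 and 491 and fell by 2.99 (SE 0.47, adjusted p = 0.0479). These medians are descriptions, and no test of the lists against each other was run.

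**Figure D5:**
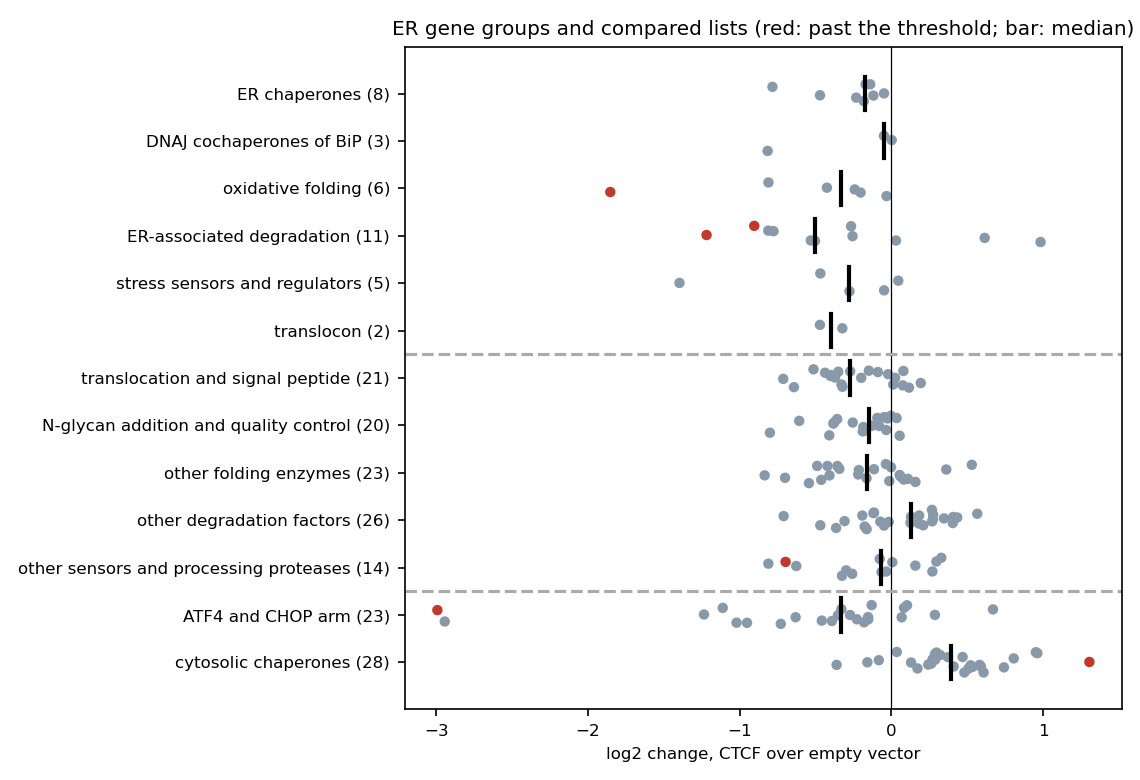
Log2 change, CTCF over empty vector, of each gene (points) and the median of its list (bar), with the number of measured genes in brackets and red for genes past the threshold. The ER groups stand above the first dashed line, other genes of the pathway between the lines, and the ATF4 and CHOP arm (median -0.33) and chaperones of the cytosol (0.39) below.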

How the data were processed

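Biotin-labelled cRNA was hybridised to Affymetrix arrays, per the labels' protocols. The deposited values are intensities on a linear scale, 1 per probe set and array. How they were background-corrected, summarised and normalized is not given in the sources used here, so the scale between arrays rests on steps that could not be checked. In the authors' deposited table, 768 selected probe sets have group mean intensities and signed folds with bounds, used here as scores of the authors. Its baseline means matched the empty vector means (median absolute log2 difference 0.00318).

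The 54613 probe sets other than the 62 AFFX controls were fitted on the log2(value + 16) scale by limma (version 3.58.1, run in R 4.3.3) through lmFit and eBayes, 2-sided, with terms for group and array set. A Benjamini-Hochberg adjusted p under 0.05 was the threshold. The array set, the members and all lists were chosen with earlier results of these data known. Platform annotation names 1 gene for 41091 probe sets, several for 1801 and none for 11721, and 41037 of the first were matched to RefSeq by Entrez ID. Each gene was read by its brightest single-gene probe set (mean log2 value over all arrays). Named were all members, CTCF, CTCFL, and from every other list up to 3 genes past the threshold with the largest change or, with none, the brightest, and from marker lists the brightest. In simulated arrays 200 of 54613 probe sets were changed, all drawn from those with a mean above the median. The noise was independent, with each SD drawn toward the median of all probe sets. The fit recovered 71% of 2-fold and 99% of 4-fold changes, with 14 false among 184 calls. Recovery of changes in dim probe sets was not simulated. The alternatives are no array set block, the replicate number as a block, quantile normalization, median centring, array weights, pseudocounts of 1 and 64, a filter on dim probe sets, robust variances with a trend, averaging each gene's probe sets, a stricter threshold of 0.01, and leaving out each array.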

Additional observations from a re-analysis of the deposited data

Results flagged for a closer look

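In 7 of 41 sets of 4 CTCF arrays, each set being 1 gene or probe set, a single array stood apart, with a gap to its neighbour above Dixon's critical share of the range. For 4 arrays that are alike, chance flags about 1 in 20 such groups, and the probe sets share their arrays. The 4 CTCF arrays are not alike, since only array 4 belongs to the smaller array set, so this rate does not apply here. CTCF array 4, of the smaller array set, was the lowest in 4 of the 7. It read 199.3 for SEL1L against 294 in the next array, 61.7 for DERL3 against 94.7, 105 for EIF2AK3 against 300.2, and 70.3 for DNAJB9 (202843_at) against 153. CTCF array 1 was the highest in EDEM1, at 489 against 358 in the next array, and in ERN1, at 310.0 against 182. CTCF array 2 was the highest for CTCF itself, at 1614 against 1332. CTCF array 4 also had the largest excess of ACTB signal toward the 3′ end, 0.91, while CTCF arrays 1 and 2 had 0.28 and 0.24. What sets these arrays apart was not tested.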

How the results depend on the processing

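With quantile normalization, median centring, a filter on dim probe sets, a pseudocount of 64, a variance trend with robust variances or array weights, 5, 5, 8, 7, 8 and 7 of the 35 genes fell and 11, 10, 20, 15, 18 and 15 of the member probe sets, with 0 rising, where 1207, 1443, 2642, 2140, 2567 and 1913 of all probe sets passed in either direction and 1.27%, 1.68%, 6.05%, 2.6%, 2.88% and 2.28% of those tested fell. The filter left 27306 probe sets, 79 of them members, and the others tested all. With each gene's probe sets averaged 5 genes fell, and the share over all genes was not computed in that fit. With no array set block, a pseudocount of 1 or a threshold of 0.01, 0 member genes and 0 member probe sets passed in limma, and 6, 2 and 22 of all probe sets did. Leaving out 1 array gave 0 to 4 genes, 0 to 6 member probe sets and 0 to 762 of all probe sets, with the median over the genes between -0.34 and -0.26, and without CTCF array 1 the 6 were 5 that fell and 1 that rose. Where the only array of a group in a set was left out, the lone array is assumed to vary like the others. Without empty vector array 1 or CTCF array 4 the median is that within the larger set (-0.26). Without empty vector array 2 it is that within the smaller set (-0.34). These fits therefore repeat the differences within the sets and are no further check.

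Arrays 1 and 2 of both groups share replicate numbers, but their deviations from the group means correlated by -0.675 for number 1 and 0.696 for number 2, values that also follow the array sets, so they do not show whether the numbers pair the arrays, and no label says that they do. With the replicate number as a block 0 genes, 0 member probe sets and 0 of all probe sets passed, 6 member probe sets had an unadjusted p under 0.05, and the median over the genes was -0.15. The share of all probe sets at that unadjusted threshold was not computed for this fit. The replicate number together with the array set leaves no residual degrees of freedom and was not run.

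Genes that were not past the threshold changed sign in some fits. With the replicate block these were DNAJC3 at 0.0925, HSP90B1 at 0.0721, SDF2L1 at 0.15, PDIA3 at 0.19, PDIA4 at 0.55, PDIA6 at 0.13, ATF6 at 0.10, EIF2AK3 at 0.21, RPN2 at 0.013 and CD79A at 0.0626. With no array set block they were DNAJC3 at 0.0742, SDF2L1 at 0.0272, PDIA4 at 0.14, PDIA6 at 0.0427 and ATF6 at 0.0455. PDIA6 was at 0.0416 after quantile normalization and 0.0152 after median centring. With probe sets averaged HSP90B1 was at 0.22, HSPA5 at 0.0125, PDIA3 at 0.0032 and XBP1 at -0.0146. Leaving out 1 array moved DNAJB11 between -0.0536 and 0.0859, DNAJC3 between -0.26 and 0.26, CALR between -0.17 and 0.0338, SELENOS between -0.0685 and 0.14, ATF6 between -0.14 and 0.0881, WFS1 between -0.80 and 0.0722 and CD79A between -0.29 and 0.12. The cause of these shifts was not tested. The 7 probe sets that fell kept their sign in all these fits of probe sets, but they were selected on the same arrays. Dim probe sets lie near the added 16, which limits what can be seen of them.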

Other observations

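Some probe sets of the ER genes differed more between the array sets than between the groups. Of the 87 probe sets, 17 were more than 1 log2 unit higher in the larger set and 6 more than 1 log2 unit lower, which 10.4% and 10.5% of all probe sets were. The median difference was 0.47 over the 87, with 0.12 over all probe sets and, for the 87, a range from -2.53 to 1.84. EDEM3 probe set 220342_x_at read 408 to 518 across the larger set but 2832 and 2739 in the smaller, while its other probe sets, 223243_s_at and 220926_s_at, did not show this. XBP1 probe set 242021_at read 7.61 to 18.2 across the larger set but 128 and 145 in the smaller. ATF6 probe set 226941_at read 257 to 550.4 across the larger set but 1461 and 1059 in the smaller. DERL3 probe set 229719_s_at read 1.0 to 3.13 across the larger set but 51.6 and 55.6 in the smaller. DERL1 probe set 218172_s_at went the other way, with 301 to 423 across the larger set but 70.2 and 101 in the smaller.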
